A study of Mus musculus with 64 samples.

Results

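Molecular chaperones of the heat shock and endoplasmic reticulum (ER) systems were followed in microglia, the resident macrophages of the brain, as a family of 50 genes out of 5647 measured. The members were all genes in the deposited table whose symbol starts with Hspa, Hspb, Hspd, Hspe, Hsph, Hsp90, Dnaj or Pdia and goes on with letters or digits, together with Calr, Canx, Atf4, Ddit3 and Xbp1. Membership was set by symbol and by no measured value, although the family was chosen with earlier results of these data known. The table keeps only genes with a mean of at least 10, so that the family described is its abundant portion. Each library came from the live CD11b+ CD45low brain cells of 1 wild-type C57BL/6J mouse, an inbred laboratory strain, and no group carried a further allele. LPS-treated females were 3, 14 and 24 months old (n = 3, 5 and 3 mice). They were killed within hours of an intraperitoneal injection of lipopolysaccharide (LPS), a bacterial endotoxin. PBS-treated females were 3 (n = 4), 6 (n = 2), 9 (n = 3), 12 (n = 4), 14 (n = 5), 16 (n = 5) and 24 months old (n = 3). PBS-treated males were 3 (n = 4), 6 (n = 4), 9 (n = 4), 12 (n = 2), 16 (n = 4), 19 (n = 5) and 24 months old (n = 4). PBS is phosphate-buffered saline, the vehicle. The PBS females of 3, 14 and 24 months served both the ageing and the LPS comparisons, which therefore share libraries.

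HSP70 proteins bind unfolded stretches of other proteins and release them in a cycle driven by ATP. J-domain proteins, named DnaJ after their bacterial relative, bring clients to HSP70 and start that cycle, and nucleotide exchange factors end it. HSP90 proteins act later, on clients that are nearly folded. In the ER, BiP (Hspa5), GRP94 (Hsp90b1), the lectin chaperones calnexin and calreticulin and the protein disulfide isomerases fold secreted and membrane proteins, and the transcription factors XBP1, ATF4 and CHOP (Ddit3) carry the unfolded protein and integrated stress responses. Microglia secrete cytokines and display many glycosylated receptors, all of which pass through the ER.

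The values are FPKM (fragments per length of transcript and depth of library) that the authors adjusted for batches and mostly rounded to whole numbers, and the reads behind each are not known. Values below are on this scale, and fold changes are on the log2(value + 1) scale, which understates changes of low genes. A gene passed the threshold at a limma adjusted p under 0.05, corrected over all 5647 genes, with a fold over 1.5. With 1 library per mouse, these p-values measure the spread between mice that the batch adjustment left. The batches are not named, so that the fits could not take account of them. Library totals lay between 408457 and 554459. They were higher in PBS females of 3 months (496013 to 516571) than in those of 12 months (430523 to 466724). All 20 homeostatic microglia genes on a marker list were measured and summed to 37947 or more in each group's lowest library. Of the 15 neutrophil genes measured, out of 19 listed, the sum lay between 362 and 32945 and differed between groups, and it is given beside the results it moved with. None of those 15 genes, nor the 4 measured T and NK cell genes out of 11 listed, was at 0 throughout a group. In these bulk samples a change in the RNA of microglia and a change in the share of another cell type cannot be told apart.

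No member was at 0 in any library. Averaged over the 64 libraries, Hspa8, the constitutive cytosolic HSP70, was highest with a mean of 1252 (range 732 to 2112). BiP followed with 519, then the disulfide isomerase Pdia3 with 448, Hsp90ab1, the constitutive cytosolic HSP90, with 343, GRP94 with 307, Canx with 298 and Calr with 279. At the low end stood Dnajc10, an ER disulfide reductase (10.5), Hspa13, an HSP70-like protein of the ER (11.4), and Hsph1, the HSP110 nucleotide exchange factor (11.8), all just above the authors' limit. A pair of symbols does not name a chaperone of the prefix. Hspbp1 is an HSP70 nucleotide exchange factor and was grouped with the cytosolic HSP70 members, and Hspb11 is a subunit of intraflagellar transport. The 17 ER members together made up 0.559% to 0.583% of the library total in PBS females of 3 months, and the 8 cytosolic HSP70, HSP110 and HSP90 members 0.353% to 0.461%.

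The promoters of several ER members hold the letters through which ATF6 and XBP1 are known to act, and those of some cytosolic members the letters bound by heat shock factor. RefSeq promoter windows of 250 bases before to 50 bases after a start site (GRCm38.p6) were found for 40 of the 50 members. The ER stress response element, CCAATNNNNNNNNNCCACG on either strand, was in 6 of these 40 genes (15.0%), namely Calr, Canx, Dnajc3, Hsp90b1, Hspa5 and Pdia6, and in 0.137% of the 27025 genes with a window. GAANNTTC, a short form of the heat shock element that reads the same on both strands, was in 7 of 40 (17.5%), namely Dnaja1, Dnajb6, Hspa1a, Hspb3, Hspd1, Hspe1 and Hsph1, against 9.04% of all genes. Hspd1 and Hspe1 are transcribed away from each other and share 1 match. A match is a description of letters and not of binding. The stretches below are shown for Hsp90b1, Pdia6 and Hspa1a, on which the ageing results turn, and for Hspa5 (BiP), the best known carrier of the ER element, which passed in no comparison, 5′ to 3′ on the gene's strand, with the motif in capitals. They lie at chr10:86705488-86705694 (minus strand), chr12:17266446-17266554 (plus), chr2:34772020-34772048 (plus) and chr17:34972208-34972305 (minus).
Hsp90b1: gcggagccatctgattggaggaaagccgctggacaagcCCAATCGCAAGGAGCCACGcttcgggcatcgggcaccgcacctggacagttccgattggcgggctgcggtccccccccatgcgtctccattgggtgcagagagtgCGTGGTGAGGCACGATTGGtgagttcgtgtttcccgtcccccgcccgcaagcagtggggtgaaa
Pdia6: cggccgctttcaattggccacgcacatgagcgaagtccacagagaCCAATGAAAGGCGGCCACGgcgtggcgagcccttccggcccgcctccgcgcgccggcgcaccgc
Hspa5: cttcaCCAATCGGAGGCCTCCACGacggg
Hspa1a: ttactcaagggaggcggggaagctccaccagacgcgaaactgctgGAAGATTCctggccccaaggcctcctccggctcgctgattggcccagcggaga

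In females, the age at which most members passed the threshold was 12 months. The falls lay mainly among ER members and the cytosolic HSP70, HSP110 and HSP90 members. Set against 3 months, 9 of 50 members (18%) were lower and 0 higher, where 7.76% of all genes were lower and 1.31% higher. This comparison was added after the levels across ages had been seen. The ER class had 4 of its 17 members lower, and 13 of 17 had a negative fold change, with a median of -0.42 on the log2 scale against -0.19 over all genes. The 8 cytosolic HSP70, HSP110 and HSP90 members had 3 lower, 5 of 8 on the negative side and a median of -0.41. The 12 cytosolic and nuclear J-domain members were all on the negative side, with a median of -0.27, and 1 of them passed. The median of all genes was itself shifted, and scaling by median ratios brought it close to 0 and left 4 members lower, namely Hsp90b1, Pdia6, Dnajc15 and Hsph1, beside 1.81% of genes lower and 2.16% higher.

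GRP94, the HSP90 of the ER, measured 132, 257, 184 and 263 in PBS females of 12 months, against 380, 410, 416 and 422 in those of 3 months. The ages did not overlap, and the 12-month mice also spread more widely. The log2 fold change was -1.01 ± 0.21 (SE; limma adjusted p = 0.00579). Pdia6, a disulfide isomerase that works beside BiP, gave 134, 146, 128 and 144 at 12 months, against 255, 236, 240 and 260 at 3 months. It fell by 0.84 on the log2 scale (SE 0.17, limma adjusted p = 0.00456), and each 12-month mouse was well below each 3-month mouse. Pdia3, which folds glycoproteins handed over by the lectin chaperones, fell by 0.78 (SE 0.19, limma adjusted p = 0.0119), with 299, 319, 380 and 371 at 12 months, against 586, 616, 596 and 550 at 3 months. Dnajb11, a BiP co-chaperone, fell by 0.73 (SE 0.17, limma adjusted p = 0.0106). BiP itself was not past the threshold: it had 369, 428, 430 and 413 at 12 months, against 516, 504, 526 and 497 at 3 months (log2 fold change -0.32, limma adjusted p = 0.245), although the ages did not overlap. Calr (-0.29) and Canx (-0.38) did not pass, nor did Dnajc3 (-0.42), which acts with BiP and restrains the kinase PERK. All 6 genes with the ER stress response element, 2 of which passed, thus had negative fold changes at 12 months, where 39 of 50 members did.

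Outside the ER, Hsph1 fell furthest. It had 2, 6, 7 and 12 in PBS females of 12 months, against 21, 20, 13 and 17 in those of 3 months, for a log2 fold change of -1.43 ± 0.35 (SE; limma adjusted p = 0.013). Its call rested on replicate 1 of 12 months, without which the largest adjusted p over its alternatives, 0.0546, was reached. Hsp90ab1 fell by 0.71 (SE 0.18, limma adjusted p = 0.0167) with 256, 291, 302 and 304 at 12 months, against 462, 449, 410 and 586 at 3 months. Hspa8 fell by 0.69 (SE 0.19, limma adjusted p = 0.0241) and Dnajc7, an adaptor between HSP70 and HSP90, by 0.76 (SE 0.22, limma adjusted p = 0.0314). Exons of Dnajc7 overlap those of Cnp and Nkiras2 on the other strand, those of Pdia6 overlap Atp6v1c2 and those of Pdia3 overlap Catsper2. The sources do not state that strand was counted, so that such partners cannot be told apart. Dnajc15, a J-domain protein at the mitochondrial import motor, fell by 0.89 (SE 0.20, limma adjusted p = 0.00984). Leaving out 1 library at a time gave 5 to 10 lower members, and the 5, without replicate 1 of 12 months, were Hsp90b1, Pdia3, Pdia6, Dnajb11 and Dnajc15. The neutrophil genes summed to 1894 to 5425 at 12 months, against 7010 to 18999 at 3 months, with 2 of 15 lower. The 8 genes of border-associated macrophages, which line the brain's vessels and membranes, summed to 284 to 350 at 12 months, against 561 to 690 at 3 months, with 6 of 8 lower and a median of -0.89. Of the 20 homeostatic microglia genes 9 were lower (median -0.57, sums 41044 to 46651 against 54091 to 59318), and of 7 measured monocyte and macrophage genes 2 were lower (sums 227 to 428 against 300 to 705). The T and NK cell genes summed to 107 to 212, against 48 to 57, with 1 of 4 higher, and 27 immediate early genes, which cell isolation can switch on, to 9861 to 13149, against 9201 to 10419, with 5 higher. The part of these in the changes was not tested.

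**Figure D1:**
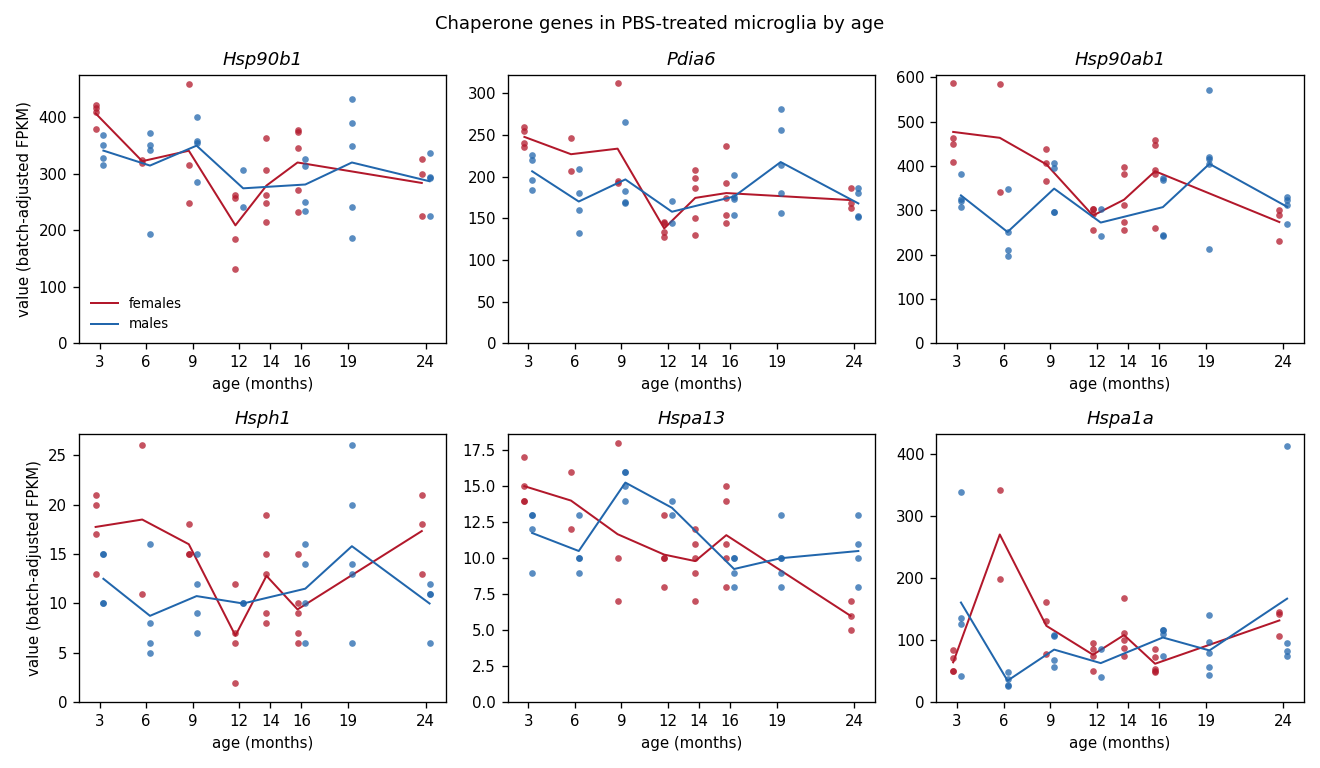
Values (batch-adjusted FPKM) of 6 chaperone genes in PBS-treated microglia against age in months, females in red and males in blue, 1 point per mouse and lines through the group means. Hsp90b1 and Pdia6 of 12-month females lie below those of 3-month females without overlap, Hspa13 of females is lowest at 24 months (5 to 7) and Hspa1a of females highest at 6 months (199 and 341).

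At 24 months, fewer members stood apart from 3 months in females. 1 of 50 was higher, where 1.56% of all genes were, and 2 were lower, where 0.531% were. The median fold change of the members was -0.09, against -0.02 over all genes. The ER class kept its sign, with 15 of 17 members negative and a median of -0.26, while the cytosolic and nuclear J-domain class had 7 of 12 positive and a median of 0.16. Of the 9 members that were lower at 12 months, Hsp90ab1 passed again. Pdia6 had 162, 186 and 168 at 24 months, against 255, 236, 240 and 260 at 3 months (-0.53, limma adjusted p = 0.107). Hsp90b1 had 226, 326 and 300 at 24 months, against 380, 410, 416 and 422 at 3 months (-0.53, limma adjusted p = 0.2). Pdia3 had 348, 503 and 454 at 24 months, against 586, 616, 596 and 550 at 3 months (-0.45, limma adjusted p = 0.224). None of these 3 passed. The other 5 did not pass either, with log2 fold changes of -0.35 for Hspa8, -0.24 for Dnajb11, -0.24 for Dnajc7, -0.04 for Hsph1 and 0.28 for Dnajc15.

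Hspa13, an HSP70-like ATPase of the ER membrane system without the usual client-binding domain, had the largest fall of the family at 24 months. It measured 7, 5 and 6 in PBS females of 24 months, against 15, 14, 14 and 17 in those of 3 months. Every old mouse lay below every young one, and the log2 fold change was -1.20 ± 0.26 (SE; limma adjusted p = 0.0152). Over all ages its group means in females ran 15.0, 14.0, 11.7, 10.2, 9.8, 11.6 and 6.0 from 3 to 24 months. The groups between 6 and 16 months overlapped one another, with single values between 7 and 18. The values are small whole numbers near the authors' limit, so that rounding alone is coarse here. The call was lost without replicate 1 or 2 of 24 months, each of which leaves 2 mice at that age (largest adjusted p over the alternatives 0.0693). Hspa13 lies at chr16:75745431-75767104 on the minus strand of GRCm38 (GENCODE vM21), with no exon shared with another coding gene.

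Hsp90ab1 had 231, 300 and 290 in PBS females of 24 months, against 462, 449, 410 and 586 in those of 3 months. The groups did not overlap, and it fell by 0.80 on the log2 scale (SE 0.20, limma adjusted p = 0.0302). Hsp90aa1, its inducible paralog, had 67, 87 and 86 at 24 months, against 101, 118, 102 and 135 at 3 months, and did not pass (-0.51, limma adjusted p = 0.194). Hspa1a, the stress-inducible HSP70, was the member that rose. It had 107, 142 and 146 at 24 months, against 51, 71, 51 and 84 at 3 months, a log2 fold change of 1.04 ± 0.28 (SE; limma adjusted p = 0.0451). Hspa1a has a near-identical neighbour, Hspa1b, which is not analysed here, so that its reads are uncertain in origin. The Hspa1a call was lost without replicate 1, 2 or 3 of 3 months or any of the 24-month libraries, and that of Hsp90ab1 without replicate 1, 2 or 4 of 3 months or any of the 24-month libraries. The count of 3 members became 1, Hspa13, without replicate 1 or 2 of 3 months or replicate 3 of 24 months, and 0 without replicate 1 or 2 of 24 months. Scaling all libraries to the same total also ended the Hspa1a call and left 0 members higher and 2 lower, where 1.08% of all genes were higher and 0.673% lower. The neutrophil sum was 3208 to 8925 at 24 months, against 7010 to 18999 at 3 months, and the T and NK cell sum 249 to 376, against 48 to 57, with all 4 measured genes higher. Their part in the result was not tested.

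**Figure D2:**
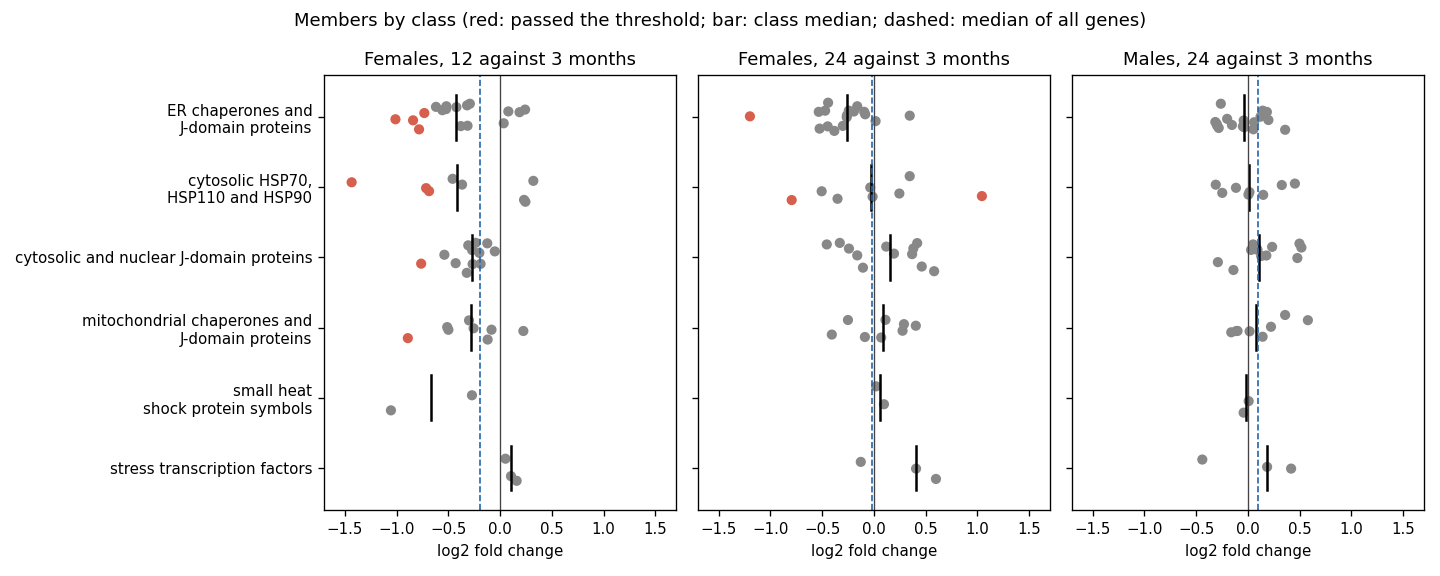
Log2 fold changes of the 50 members, 1 point per gene, by class (rows) for females at 12 against 3 months, females at 24 against 3 months and males at 24 against 3 months. Red points passed the threshold, black bars are class medians and the dashed line is the median of all genes. The ER class median lies below that of all genes in each panel. The values are -0.42 against -0.19 and -0.26 against -0.02 in females of 12 and 24 months, and -0.04 against 0.10 in males.

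A test across all 7 female ages called 10 members, 9 of them with a fall as their largest change from 3 months, where 9.6% of all genes had a fall, and 1 with a rise, where 5.21% had one. In either direction 20% of the members passed, against 14.8% of all genes, and the falls made up 18% of the members. The fallers were Hsp90b1, Pdia6, Dnajb11, Hsph1, Dnajc15 and Hspa8, largest at 12 months, Hsp90ab1 and Hspa13, largest at 24 months, and Dnajc19, also of the mitochondrial import motor, largest at 9 months (-0.64). Scaling by median ratios turned this split to 3 higher (Hsp90aa1, Atf4 and Hspa1a) and 4 lower (Hsp90ab1, Dnajc15, Hspa13 and Pdia6), where 6.41% of all genes were higher and 3.56% lower. Hsp90b1, Dnajb11, Hsph1, Hspa8 and Dnajc19 thus depend on the scale. Hspa1a had its largest change at 6 months, where the 2 mice gave 199 and 341, against 51, 71, 51 and 84 at 3 months. Both stood above every 3-month mouse, and the log2 fold change was 2.04 ± 0.32 (SE; limma adjusted p = 0.00465 at that age and 0.000564 across ages).

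Immediate early genes were high in some of the libraries in which Hspa1a was high. The sum over 27 of them was 14204 and 14830 in PBS females of 6 months, against 9201 to 10419 in those of 3 months. At 24 months it was 12357 to 13270. The highest sum of all, 19522, belonged to the male of 24 months with the highest Hspa1a value, 413, whereas a male of 3 months with 339 had a sum of 8357. Over the 64 libraries the log2 value of Hspa1a and the mean log2 value of the immediate early genes had Pearson's r = 0.436. With Dnajb1, the main HSP40 partner of inducible HSP70, it had r = 0.758. Both are descriptions over libraries that share processing and groups. What part cell isolation had in the Hspa1a values was not tested.

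**Figure D3:**
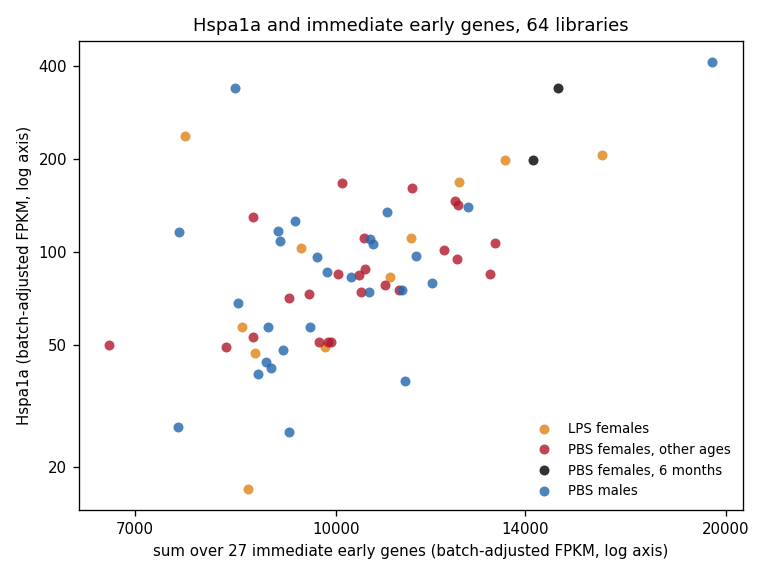
Hspa1a (vertical, batch-adjusted FPKM, log axis) against the sum over 27 immediate early genes (horizontal, same unit, log axis), 1 point per library for 64 libraries. The 2 females of 6 months (black) lie at upper right with Hspa1a at 199 and 341, and libraries at the left span a wide range of Hspa1a.

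The stress transcription factors did not pass with age in females, at 12 or 24 months or across ages. Atf4 had 53, 49, 36 and 40 at 12 months and 60, 52 and 46 at 24 months, against 34, 41, 37 and 46 at 3 months. Its largest change was at 6 months (1.17, limma adjusted p = 0.0561 across ages), and it passed across ages after either scaling of the libraries. Xbp1 at 24 months had 187, 164 and 140, against 188, 170, 176 and 177 at 3 months (-0.13, limma adjusted p = 0.789). Ddit3 had 35, 46 and 59 at 24 months, against 30, 23, 30 and 38 at 3 months (0.60, limma adjusted p = 0.25).

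The main mitochondrial folding machines did not pass the threshold. Hspd1 and Hspe1 encode HSP60 and its lid HSP10, from neighbouring genes on opposite strands whose exons overlap. Hspd1 had 27, 47, 37 and 39 in females of 12 months, against 53, 57, 55 and 47 in those of 3 months (-0.51, limma adjusted p = 0.0891), and Hspe1 had a log2 fold change of -0.50 (limma adjusted p = 0.169). Hspa9, the mitochondrial HSP70, had 27, 50, 41 and 50 at 12 months, against 40, 36, 29 and 35 at 3 months (0.23, limma adjusted p = 0.494). With the values as deposited, none of the 3 passed in any of the comparisons, nor did 30 of the 50 members in all, among them 10 of the 12 cytosolic and nuclear J-domain proteins and 9 of the 17 ER members.

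In males, no member passed at 24 against 3 months in limma, where 2.85% of all genes did, and 5 members had an unadjusted p under 0.05, none of them with the fold. The median fold change of the members was 0.04, against 0.10 over all genes. Hspa13 had 8, 10, 11 and 13 in males of 24 months, against 13, 9, 13 and 12 in those of 3 months, so that the ages overlapped (-0.15, limma adjusted p = 0.798). Hsp90ab1 had 311, 269, 329 and 323 at 24 months, against 325, 320, 382 and 308 at 3 months (-0.11, limma adjusted p = 0.898).

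Across the 7 male ages 3 members passed, all as falls and all of the ER, where 2.64% of all genes fell and 5.72% rose. In either direction 6% of the members passed, against 8.36% of all genes. Pdia4, a disulfide isomerase, was the steadiest. It had 74, 59, 78 and 67 in males of 16 months, against 128, 103, 137 and 161 in those of 3 months. The ages did not overlap, the log2 fold change was -0.91 ± 0.18 (SE; limma adjusted p = 0.000893 at that age, 0.00129 across ages), and it passed in all 34 alternative fits. As deposited, 21 of 64 libraries hold no value between 0 and 1. Among males they are all those of 12, 16 and 24 months. Replicates 2 to 5 of 19 months and 1 and 2 of 3 months are also among them, and no male of 6 or 9 months is. The rest are the 5 females of 16 months. The part of the batch adjustment in the Pdia4 fall, and in the other male age comparisons, was not tested. By 24 months Pdia4 measured 80, 135, 98 and 114 and overlapped the 3-month range. Canx was lowest at 12 months, with 259 and 185, against 282, 369, 318 and 357 at 3 months (-0.59, limma adjusted p = 0.0319 across ages). At 12 against 3 months alone it did not pass (limma adjusted p = 0.207). Dnajc18, a J-domain protein of the ER membrane, was lowest at 16 months, with 10, 6, 9 and 6, against 11, 11, 15 and 11 at 3 months (-0.59, limma adjusted p = 0.0184 across ages). At 16 against 3 months alone it did not pass either (limma adjusted p = 0.0558). The count of 3 became 1, Pdia4, without replicate 4 of 16 months. Neutrophil genes summed to 9342 to 32945 in males of 16 months, against 2809 to 4775 at 3 months, with 13 of 15 higher, and T and NK cell genes to 225 to 612, against 48 to 78. Of the 7 monocyte and macrophage genes 6 were higher at 16 months (sums 556 to 1388 against 227 to 369), while 2 of 8 border-associated macrophage genes (354 to 566 against 602 to 841) and 5 of 20 homeostatic microglia genes (44980 to 50370 against 50097 to 54522) were lower. At 12 months the neutrophil sums were 7819 and 12785. Their part was not tested.

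As a share of the library total, the 17 ER members were lower at several later ages than at 3 months in both sexes. In females they made up 0.365% to 0.504% at 12 months and 0.362% to 0.482% at 24 months, against 0.559% to 0.583% at 3 months. The ranges at 12 and at 24 months lay wholly below that of 3 months, while those of 14 and 16 months (0.399% to 0.598% and 0.413% to 0.603%) spanned it. Those of 6 and 9 months (0.551% to 0.578% and 0.566% to 0.616%) overlapped it. In males they made up 0.452% and 0.487% at 12 months, 0.383% to 0.468% at 16 months and 0.393% to 0.538% at 24 months, against 0.527% to 0.638% at 3 months. The 16-month males did not overlap the 3-month males, and the 24-month males did. Males of 6, 9 and 19 months (0.430% to 0.642%, 0.537% to 0.604% and 0.389% to 0.585%) overlapped them too. The totals include the neutrophil genes, which summed to 9342 to 32945 in 16-month males, against 2809 to 4775 at 3 months. Their part in the shares was not tested. A lower share was not confined to the ER class. In females the 8 cytosolic HSP70, HSP110 and HSP90 members also made up less of the total on average at 12 and at 24 months than at 3 months. Hspa8, the most abundant of them, averaged 856.5 at 12 months and 1085 at 24 months, against 1378 at 3 months.

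**Figure D4:**
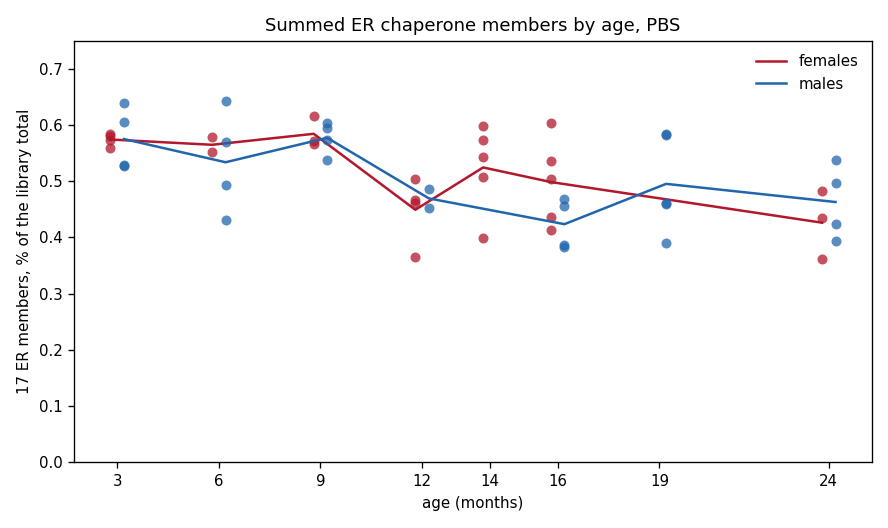
Sum of the 17 ER members as a percentage of the library total (vertical) against age in months, females in red and males in blue, 1 point per mouse and lines through group means. Females of 12 and 24 months lie below 3-month females (0.559% to 0.583%), and males of 16 months (0.383% to 0.468%) below 3-month males.

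No member passed between females and males over the 6 shared ages in limma, where 0.23% of all genes did. The largest fold change of a member was 0.36 in size on the log2 scale, short of the fold required, and 9 members had an unadjusted p under 0.05. The change from 3 to 24 months differed between the sexes in 0 members in limma, where 0.0177% of all genes passed. At an unadjusted p under 0.05 it did so in 7 members, 5 of them with the fold. For Hspa13 the change in females minus that in males was -1.04 ± 0.31 (SE) on the log2 scale, with a limma adjusted p = 0.397. The fall of Hspa13 in old females is thus not shown to differ from the male change, and a p that misses the threshold does not show that the sexes changed alike.

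After LPS the share of members past the threshold was near that of all genes at each age, and Atf4 was the member that rose at more than 1 age. At 3 months 1 member was higher, where 6.16% of all genes were, and 3 were lower, where 5.08% were, which makes 8% of members against 11.2% of genes. The shares were 2% against 1.81% at 14 months and 10% against 9.7% at 24 months. Atf4, the main effector of the integrated stress response, had 71, 77 and 70 in LPS females, against 34, 41, 37 and 46 in PBS females. Each LPS mouse stood above each PBS mouse, the log2 fold change was 0.87 ± 0.19 (SE; limma adjusted p = 0.00273), and the call held in all 15 alternative fits. Xbp1, the factor of the IRE1 branch, had 246, 254 and 280 in LPS females, against 188, 170, 176 and 177 in PBS females. The groups did not overlap, yet Xbp1 missed the threshold (0.54, limma adjusted p = 0.0722). Ddit3 had 40, 50 and 41 after LPS, against 30, 23, 30 and 38 after PBS (0.53, limma adjusted p = 0.225).

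The 3 members that were lower at 3 months were a cytosolic HSP90, the HSP110 and a mitochondrial J-domain protein. Hsp90ab1 had 310, 297 and 302 in LPS females, against 462, 449, 410 and 586 in PBS females, and fell by 0.64 on the log2 scale (SE 0.16, limma adjusted p = 0.00796). Hsph1 had 3, 7 and 9 in LPS females, against 21, 20, 13 and 17 in PBS females, and fell by 1.43 (SE 0.34, limma adjusted p = 0.00657). Dnajc15 had 20, 22 and 24 in LPS females, against 33, 34, 40 and 43 in PBS females, and fell by 0.74 (SE 0.23, limma adjusted p = 0.0328). None of the 3 overlapped between treatments, which restates calls made on the same mice and is no further evidence. The ER class had 0 members past the threshold and a median of -0.27, with 15 of 17 negative, against -0.14 over all genes. With median-ratio scaling the split turned to 3 higher (Atf4, Xbp1 and Hspa9) and 1 lower (Hsph1), where 7.88% of all genes were higher and 2.53% lower. Hspa9 had 50, 42 and 56 in LPS females, against 40, 36, 29 and 35 in PBS females. Without replicate 1 of LPS or replicate 4 of PBS 2 members passed, Atf4 with Hsp90ab1 and Atf4 with Hsph1 in turn. The same 4 PBS libraries are the 3-month mice of the ageing comparison, so that low LPS values here and low values with age there are read against the same mice. Neutrophil genes summed to 2163 to 3865 in LPS females, against 7010 to 18999 in PBS females, with 10 of 15 lower, and T and NK cell genes to 173 to 278, against 48 to 57, with 2 of 4 higher. Of the 27 immediate early genes 8 were higher and 6 lower, and of the 20 homeostatic microglia genes 5 were lower. The part of these was not tested.

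At 14 months Atf4 was the single member past the threshold and was higher, where 1.4% of all genes were higher and 0.407% lower. It had 89, 69, 67, 82 and 90 in LPS females, against 58, 40, 57, 44 and 56 in PBS females. The groups did not overlap, and the log2 fold change was 0.63 ± 0.15 (SE; limma adjusted p = 0.0293). The call was lost without replicate 1, 4 or 5 of LPS or replicate 2 or 4 of PBS, and after scaling to the same total (largest adjusted p 0.0926). Xbp1 had 269 to 321 in the 5 LPS mice (median 293), against 135 to 341 in the 5 PBS mice (median 200). The PBS range enclosed the LPS range because of 1 mouse at 341 (0.55, limma adjusted p = 0.071). Members as a whole had a median of 0.04, against 0.02 over all genes.

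At 24 months 2 members were higher, where 4.27% of all genes were, and 3 were lower, where 5.44% were. Hspa13 had 12, 15 and 13 in LPS females, against 7, 5 and 6 in PBS females. The treatments did not overlap, and the log2 fold change was 1.04 ± 0.28 (SE; limma adjusted p = 0.0232). The LPS values of 24 months thus lay within the range of the LPS mice of 14 months (7 to 16) and close to those of 3 months (12 to 14), while the PBS mean, 6.0, was the lowest of any group. The call was lost without replicate 2 of LPS or of PBS and without the libraries of 14 and 24 months that hold over 20 values between 0 and 1 (largest limma adjusted p 0.0792). Hsp90aa1, the inducible cytosolic HSP90, had 142, 141 and 147 in LPS females, against 67, 87 and 86 in PBS females. It was the steadiest call of this age (0.84 ± 0.20, limma adjusted p = 0.0113) and was lost only without replicate 1 of PBS. From 3 to 14 to 24 months its LPS means were 137, 143 and 143, and its PBS means 114, 115 and 80. The PBS libraries of 24 months are also the old mice of the ageing comparison.

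Of the members that were lower at 24 months, Dnajb1 had 68, 76 and 125 in LPS females, against 117, 186 and 165 in PBS females (-0.82 ± 0.22, limma adjusted p = 0.0229). Its groups overlapped, since the third LPS mouse exceeded the lowest PBS mouse. That mouse also had an Hspa1a value of 238, whereas the others had 17 and 57, against 107, 142 and 146 in PBS females. Dnajc11, a J-domain protein that helps organise mitochondrial membranes, had 13, 10 and 13 in LPS females, against 24, 17 and 26 in PBS females (-0.83, limma adjusted p = 0.0443). Hspb3, a small heat shock protein known from muscle, had 18, 0.16 and 24 in LPS females, against 30, 39 and 29 in PBS females (-2.03, limma adjusted p = 0.0469). The call rested on the fractional 0.16, without which the log2 fold change was -0.62 and did not pass, and it was lost in 10 of 13 alternative fits. Scaling by median ratios left 3 higher (Hsp90aa1, Hspa13 and Dnaja2) and 1 lower (Dnajb1), where 6.48% of all genes were higher and 2.64% lower. Without the 3 libraries that hold over 20 values between 0 and 1, Hsp90aa1 alone passed. Leaving out 1 library at a time gave 2 to 7 members, with 2 without replicate 2 of LPS or replicate 1 or 3 of PBS, and 3 without replicate 1 of LPS or replicate 2 of PBS. The immediate early sum was 7652 to 8563 in LPS females, against 12357 to 13270 in PBS females. T and NK cell genes summed to 75 to 250, against 249 to 376, with 2 of 4 lower, and neutrophil genes to 4126 to 16650, against 3208 to 8925, with 3 of 15 higher. The part of these in the result was not tested.

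**Figure D5:**
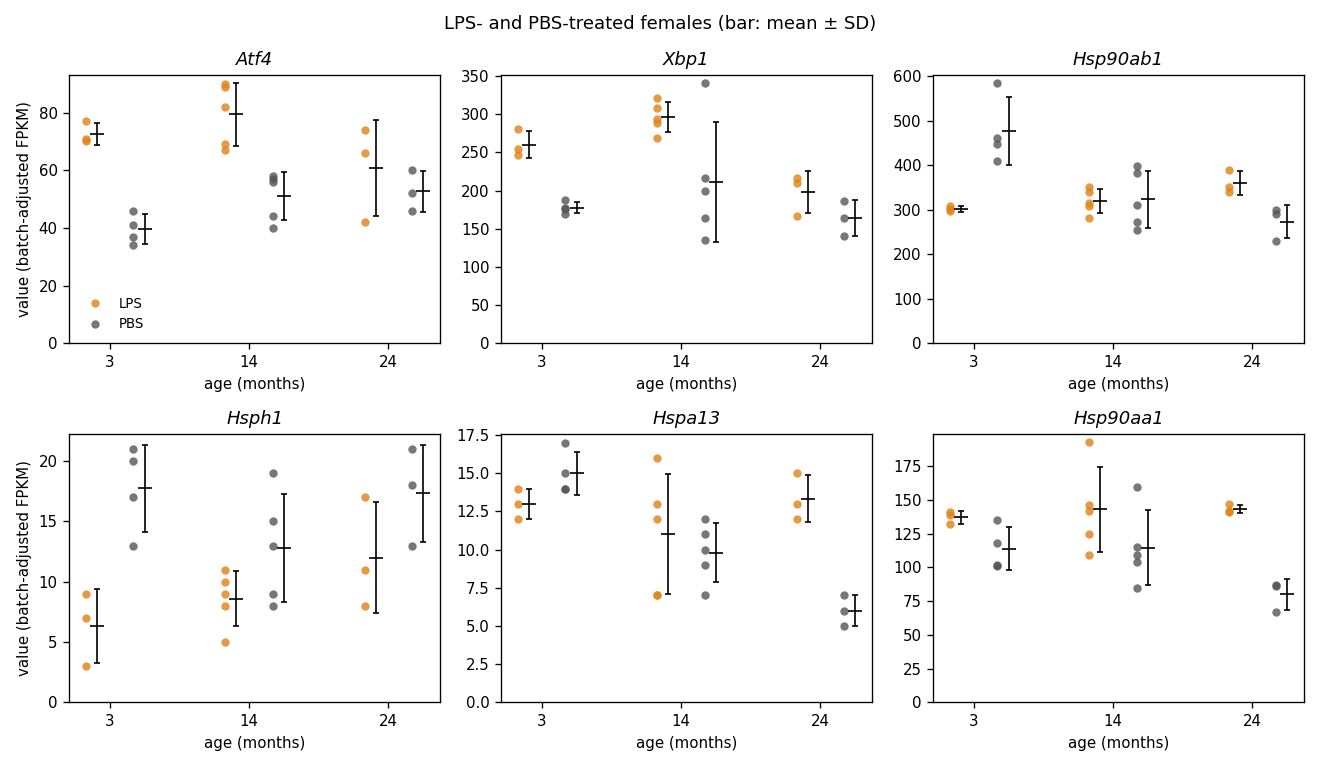
Values (batch-adjusted FPKM) of 6 members in LPS females (orange, left) and PBS females (grey, right) of 3, 14 and 24 months, 1 point per mouse with the mean and SD beside the points. Atf4 after LPS lies above PBS without overlap at 3 and 14 months, and Hspa13 and Hsp90aa1 do so at 24 months.

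No member's response to LPS passed as different between ages in limma. At 14 minus 3 months 0.301% of all genes passed, with 4 members at an unadjusted p under 0.05 and the fold. At 24 minus 3 months 0% of all genes passed, again with 4 such members. The nearest was Hsp90ab1, which fell with LPS at 3 months and had 340, 351 and 390 in LPS females of 24 months, against 231, 300 and 290 in PBS females of that age (0.40, limma adjusted p = 0.113). Its response at 24 months minus that at 3 months was 1.04 ± 0.23 (SE), with a limma adjusted p = 0.0594, and it passed with a pseudocount of 5, with a filter at a mean of 50 and after scaling to the same total. For Hspa13 the same difference was 1.23 ± 0.39 (SE; limma adjusted p = 0.209), and for Atf4 it was -0.70 (limma adjusted p = 0.31). The LPS responses of these genes are therefore not shown to differ between young and old females.

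Genes of the same pathways outside the family were taken from lists of ER quality control, cytosolic co-chaperones and mitochondrial quality control. Their counts are to be read against the shares of all genes, for females of 12 against 3 months 7.76% lower and 1.31% higher with a median of -0.19, and with LPS 5.08% lower at 3 months and 5.44% at 24 months. Of 47 measured ER quality control and ER stress genes, 6 were lower and 0 higher in females of 12 against 3 months, with a median of -0.32. They included Erp29 and Txndc12, thioredoxin-like proteins of the ER, and Creld2 and Manf, secreted or retained ER stress products. At 24 against 3 months 1 was higher and 0 lower. This was Ppp1r15a, which encodes GADD34, the phosphatase subunit that reverses the integrated stress response (1.21 ± 0.31, limma adjusted p = 0.0393). With LPS at 24 months 1 of these 47 was higher and 3 were lower, and Ppp1r15a was among the lower ones (-1.69 ± 0.23, limma adjusted p = 0.000111). Its rise with age and its fall with LPS both involve the same PBS females of 24 months. Of 38 heat shock factors and co-chaperones 1 was higher and 5 were lower in females of 12 against 3 months, Fkbp4, an HSP90 co-chaperone, among the lower (-0.75). Fkbp4 was also lower with LPS at 3 months (-0.74), where 2 of the 38 were higher and 2 lower, and Fkbp5 was among the higher (1.88 ± 0.40, limma adjusted p = 0.00268). Of 14 mitochondrial quality control genes 2 were lower in females of 12 against 3 months. In males at 24 against 3 months 0 of the 3 lists' genes passed in either direction.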

How the data were processed

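The deposited table holds scores: batch-adjusted FPKM, per the authors' methods and the submitters' processing notes aligned to mm10 (HISAT2 2.0.4) and to transcripts (Bowtie2 2.2.5), quantified by RSEM 1.2.12, adjusted with ComBat_seq, filtered at an average of 10 and rounded (297 values are fractional). The batches are not named in the sources used here. Depth is unknown, and such values are not counts, so that limma 3.58.1 (statmod 1.5.0, R 4.3.3) on log2(value + 1) with a variance trend replaced the count test of the study. Females, males, LPS groups and both sexes over 6 shared ages were fitted separately, and p-values were adjusted by Benjamini and Hochberg over 5647 genes. The script was tested on simulated data. Groups came from the sample titles, 1 mouse per library. The members and gene lists were chosen with earlier results of these data known. The genes named are members past the threshold in a comparison, a fixed set of main chaperones and stress factors whatever their values, the highest and lowest members by mean, and up to 4 genes per outside list. Hspd1, Hspe1 and Hspa9 of that set passed in no comparison as reported. Alternatives were other pseudocounts (0.5, 5), dropping genes whose mean was under 50, median-ratio and total scaling, a robust variance, a replicate block and leaving out each library. Motifs were searched in RefSeq promoter windows, and coordinates are those of GENCODE vM21. Figures were drawn in Python 3.11.15 with matplotlib 3.10.9.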

Additional observations from a re-analysis of the deposited data

Results flagged for a closer look

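In 8 of 165 groups of 4 or more libraries, over 15 of the named members, 1 library lay far from the others of its group by Dixon's criterion, which chance alone meets in about 1 of 20 groups. Hspa1a was 413 in replicate 3 of the 24-month males, where the others had 75 to 96, and 74 in replicate 4 of the 16-month males, where the others had 110 to 117. Hsph1 was 6 in replicate 1 of the 24-month males (others 11 to 12). Canx was 168 in replicate 5 of the 14-month PBS females (others 317 to 357). Hsp90b1 was 194 in replicate 3 of the 6-month males (others 342 to 372). Pdia6 was 266 in replicate 3 of the 9-month males (others 168 to 183). Dnajc15 was 45 in replicate 2 of the 16-month males (others 29 to 30). Xbp1 was 241 in replicate 3 of the 16-month females (others 178 to 189).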

How the results depend on the processing

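Of 747 alternative fits of 35 gene results, 605 kept the call and 142 lost it, and 0 changed direction. A pseudocount of 5 left 1 member across male ages (3 as reported) and gave 1 for the LPS response at 24 minus 3 months (0 as reported). A filter at a mean of 50 left 2 with LPS at 3 months and 3 at 24 months, and gave 1 for that response difference. Scaling to the same total left 4 in females at 12 against 3 months, 0 with LPS at 14 months and 3 at 24 months, and gave 1 for the response difference, and median ratios left 4 at 12 months. With the same total, 1.79% of all genes were higher and 1.79% lower at 12 months. With LPS, 0.815% were higher and 0.602% lower at 14 months, and 7.37% and 1.88% at 24 months. Without the 3 libraries with over 20 values between 0 and 1, 0 passed with LPS at 14 months and 1 at 24 months. These 3, and 12 against 3 months in females, were chosen after seeing the data. Leaving out 1 library gave 0 to 2 members in females at 24 months, 7 to 13 across ages, 5 to 10 at 12 months, 0 to 0 in males at 24 months, 1 to 4 across ages, and with LPS 2 to 4 at 3 months, 0 to 1 at 14 and 2 to 7 at 24 months. The interactions and the sex comparisons stayed at 0. Libraries of the same replicate number in the sample titles did not pair (median r 4.26e-05 in females, -0.00444 in males, 0.0139 with LPS, 0.00218 over both sexes). The deposited columns of some groups carry other numbers, and a pairing by those was not tested. With a block of title replicates the counts were 2 and 9 in females at 24 months and across ages, 9 at 12 months, 4 across male ages, and 4, 1 and 4 with LPS. Low members such as Hspa13 are limited by rounding to whole numbers, and no interval from counting can be given.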
